A study of Homo sapiens with 9 samples.

Results

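FAM72A, FAM72B, FAM72C and FAM72D on chromosome 1, and ARHGAP11A and ARHGAP11B on chromosome 15, are 6 human genes in 2 families of recent duplicates. The FAM72 copies differ at few bases, while ARHGAP11B is a partial copy of ARHGAP11A. They were taken by symbol from the authors' table that pairs each assembled isoform with a reference gene. They made up 6 of the 22266 loci of the gene table, 1 locus each. Of 39 isoforms listed for them, 37 had a value among the 199618 isoforms of the isoform table, 16 of them in FAM72 and 21 in ARHGAP11. The other 2 listed isoforms belong to ARHGAP11B. The genes were chosen with their FPKM (fragments scaled by transcript length and library size) in these libraries known, so their differences between libraries are a description and carry no test.

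The FAM72 genes encode small, nearly identical proteins that are made in proliferating cells. FAM72A binds the uracil DNA glycosylase UNG and lowers its amount in B cells. Each FAM72 copy lies beside a copy of SRGAP2, a regulator of neuronal migration, because the gene pair was duplicated together in the human lineage. ARHGAP11A encodes a GTPase-activating protein that switches off the small GTPase RhoA and acts in cell division. ARHGAP11B is a partial copy found only in humans. Its product lacks GTPase-activating function, carries a tail of its own, lies in mitochondria and promotes the division of cortical progenitor cells.

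The study asked which RNAs are removed by nonsense-mediated decay (NMD), the pathway that destroys mRNAs on which translation ends early. A stop codon that lies well before an exon junction is the best known signal for this pathway in mammals. UPF1 is the helicase at its centre, SMG6 is its endonuclease, and XRN1 is the cytoplasmic exonuclease that degrades RNA from the 5′ end. The cells of all libraries were HEK293, an established line from human embryonic kidney, of a Flp-In T-Rex subline named b-39 that carries a b-globin reporter named PTC39 in the Flp-In locus. The cells had been depleted of SMG6 and XRN1, of UPF1 and XRN1, or of XRN1 alone, and the control cells received EGFP siRNA. Cytoplasmic poly(A)+ RNA was sequenced in 1 library for each of these 4 groups, so no difference had a replicate check. The series had 9 samples, and those that map RNA 5′ ends or caps were not analysed here.

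Depth was 31476528 to 35983475 estimated reads per library. A read here is the spike-in normalised signal of an isoform divided by the value of 1 read in that library, which was 3.72 to 4.25. Read ratios use the spike-in scale, and their 95% intervals cover counting error only. The levels of the targeted mRNAs gave no check of the labels. XRN1 stood at 10.1 FPKM in SMG6/XRN1, 6.50 in UPF1/XRN1, 7.31 in XRN1 and 7.80 in the control. SMG6 stood at 7.66 FPKM in SMG6/XRN1, 5.97 in UPF1/XRN1, 5.55 in XRN1 and 4.77 in the control, and UPF1 at 11.4 FPKM in SMG6/XRN1, 8.59 in UPF1/XRN1, 11.6 in XRN1 and 6.71 in the control. Each library is therefore called by its label, and SMG6/XRN1, UPF1/XRN1, XRN1 and control below mean the library labelled so. Of 21 marker genes fixed for the cell type check, 17 were in the gene table. Of those listed for HEK293, VIM averaged 369 FPKM, KRT8 207, EPCAM 116, KRT18 52.0, the neurofilament gene NEFL 46.8 and GATA3 10.2, while the neurofilament gene NEFM averaged 0.504 and PAX2 and LHX1 of kidney progenitors averaged 0.248 and 0.408. Markers of blood, fibroblasts, endothelium and liver averaged at most 0.403 FPKM, the value of COL1A1.

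Changes are given as the log2 ratio of FPKM + 1, and a change is called at 2-fold. Among 12164 loci with a mean of at least 1 FPKM, 545 (4.48%) passed 2-fold in XRN1 over control, 500 (4.11%) upward and 45 (0.37%) downward. In SMG6/XRN1 over XRN1 187 did (1.54%), 166 (1.36%) upward and 21 (0.173%) downward, or 111 and 31 after centring on the median of all loci. In UPF1/XRN1 over XRN1 371 did (3.05%), 306 (2.52%) upward and 65 (0.534%) downward. After the same centring, XRN1 over control held 362 upward and 65 downward, and UPF1/XRN1 over XRN1 held 291 and 70. All 6 genes passed the filter. FAM72C and ARHGAP11B were past 2-fold in each of the 3 comparisons, 2 of 6 each time, and FAM72A, FAM72B, FAM72D and ARHGAP11A stayed under 2-fold in all of them. The median over all loci stood at 0.14, 0.12 and 0.02 in these comparisons.

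**Figure D1:**
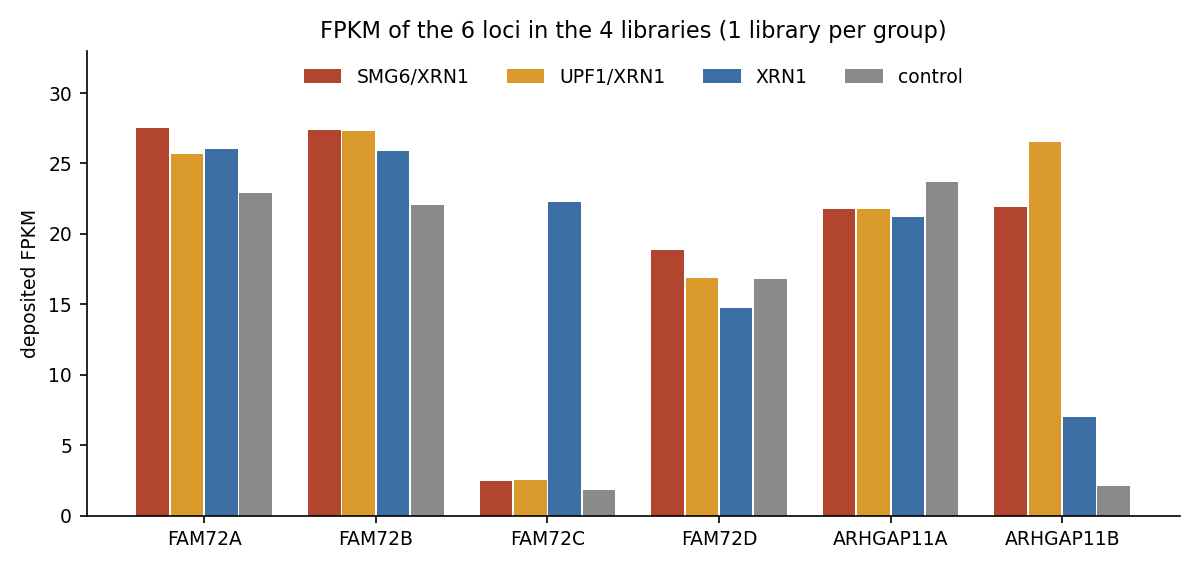
Bars give the deposited FPKM of the 6 loci in the 4 libraries, 1 library per group, with SMG6/XRN1, UPF1/XRN1, XRN1 and control from left to right. FAM72C stands at 22.2 FPKM in XRN1 and at 1.83 to 2.50 FPKM in the other libraries, while ARHGAP11B stands at 26.5 FPKM in UPF1/XRN1 and at 2.12 FPKM in the control.

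The FAM72 copies can be told apart by very few bases. In GENCODE release 29 (build GRCh38) FAM72A lies at chr1:206186179-206204414 on the minus strand, FAM72B at chr1:121167646-121185539 on the minus strand, FAM72C at chr1:143955364-143971965 on the minus strand and FAM72D at chr1:145096000-145112696 on the plus strand. The authors' values were made on hg19, so these positions serve for annotation only. The coding sequence is 450 bases long in each copy, and the 4 copies differ at 6 of those bases. Counted from 1 at the start codon, FAM72B differs from FAM72A by T281C and G364A. FAM72D differs from FAM72A by T6C, G295A and T373C, and FAM72C by the same 3 substitutions and G245T. Coding bases 231 to 390 hold 5 of the 6 differing positions and are shown, 5′ to 3′. Among these positions only base 245 separates FAM72C from FAM72D. FAM72C is shown from its full-length form. Nearly all FAM72C reads sat instead on the isoform that matches ENST00000369175, and whether that form holds base 245 was not examined. Capitals mark the positions at which the copies differ.
FAM72A ENST00000367128.7: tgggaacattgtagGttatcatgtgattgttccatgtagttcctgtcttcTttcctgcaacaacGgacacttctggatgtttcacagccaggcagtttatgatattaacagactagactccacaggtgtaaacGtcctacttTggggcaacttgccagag
FAM72B ENST00000369390.7: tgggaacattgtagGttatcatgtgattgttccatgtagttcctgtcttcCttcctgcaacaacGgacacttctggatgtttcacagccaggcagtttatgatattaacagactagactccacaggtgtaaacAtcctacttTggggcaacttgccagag
FAM72C ENST00000584486.5: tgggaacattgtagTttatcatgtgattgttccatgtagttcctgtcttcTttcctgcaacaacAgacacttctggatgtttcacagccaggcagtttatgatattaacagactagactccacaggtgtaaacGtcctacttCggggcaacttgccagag
FAM72D ENST00000400889.2: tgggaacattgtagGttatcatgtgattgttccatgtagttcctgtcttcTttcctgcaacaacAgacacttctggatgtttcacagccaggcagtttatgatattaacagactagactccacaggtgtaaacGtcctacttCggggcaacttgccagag

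Aligned over the whole mRNA, the 6 pairs of FAM72 copies were 99.5% to 99.8% identical. FAM72C and FAM72D were the closest pair, with 4 mismatches in 2296 aligned bases and 1 difference in the coding sequence. The FAM72C isoform in the files matched ENST00000369175, a form with 3 exons and 1658 bases in release 29. Of its 1609 windows of 50 bases, 40 (2.49%) occurred in no transcript of the other FAM72 copies. The share was 6.39% for the FAM72D transcript, 8.81% for ENST00000367128 of FAM72A and 15.1% for ENST00000369390 of FAM72B. In ARHGAP11 the shares were larger. They were 84.4% for ENST00000361627 and 87.2% for ENST00000543522 of ARHGAP11A, and 57.0% for ENST00000563110 of ARHGAP11B. The sources used here do not say how reads were split among near-identical copies, so single FAM72 values are uncertain and sums over the family are set beside them.

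**Figure D2:**
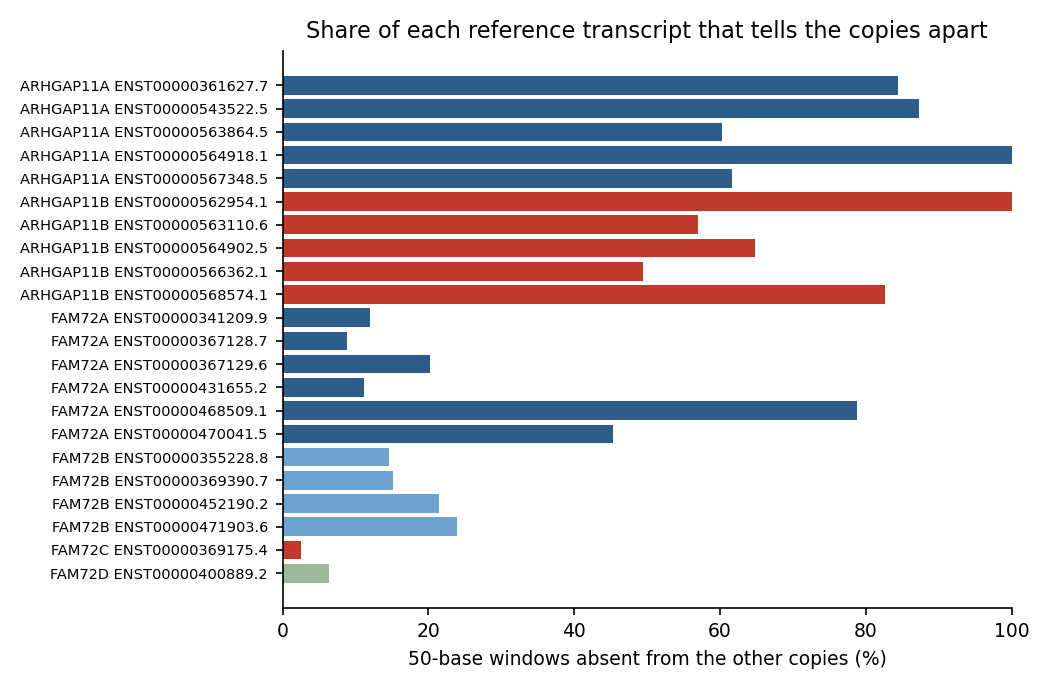
Bars give the percent of 50-base windows that no other copy contains. Each bar is a reference transcript of GENCODE release 29 whose ID, version number aside, is named by an isoform of the 6 genes with a value. The FAM72C transcript has the smallest share (2.49%), and the ARHGAP11 transcripts have at least 49.4%.

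FAM72C was the copy that stood apart in XRN1. It had 2.44 FPKM in SMG6/XRN1, 2.50 in UPF1/XRN1, 22.2 in XRN1 and 1.83 in the control. The 3 low libraries lay close together and XRN1 lay far above them. In bulk libraries a higher level per cell and more cells at a high level cannot be told apart. The log2 change was 3.04 in XRN1 over control, -2.76 in SMG6/XRN1 over XRN1 and -2.73 in UPF1/XRN1 over XRN1. Among the 12164 loci these ranked 9th from the top, 3rd from the bottom and 2nd from the bottom.

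The estimated reads of the FAM72C locus gave the same order. They were 102 in SMG6/XRN1, 119 in UPF1/XRN1, 916 in XRN1 and 78 in the control. The read ratio was 12.3 (9.78 to 15.8) in XRN1 over control. It was 0.117 (0.0943 to 0.144) in SMG6/XRN1 over XRN1 and 0.119 (0.0977 to 0.145) in UPF1/XRN1 over XRN1. Against the control, the ratio was 1.44 (1.06 to 1.96) in SMG6/XRN1 and 1.47 (1.10 to 1.99) in UPF1/XRN1. Nearly all of these reads sat on the isoform that matches ENST00000369175, since the other FAM72C isoform had 0.441 reads in XRN1 and was listed at 0 elsewhere.

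FAM72D, the copy closest in sequence to FAM72C, was lowest where FAM72C was highest. It had 18.9 FPKM in SMG6/XRN1, 16.8 in UPF1/XRN1, 14.7 in XRN1 and 16.8 in the control, and its log2 change was -0.18 in XRN1 over control, 0.33 in SMG6/XRN1 over XRN1 and 0.18 in UPF1/XRN1 over XRN1. All 3 values are under 2-fold. Its only isoform, ENST00000400889, had 1647 reads in SMG6/XRN1, 1675 in UPF1/XRN1, 1272 in XRN1 and 1500 in the control. The read ratio of XRN1 over control was 0.891 (0.826 to 0.961). FAM72D held 29.4% of the family's reads in SMG6/XRN1, 27.9% in UPF1/XRN1, 21.7% in XRN1 and 31.2% in the control. FAM72C held 1.82% in SMG6/XRN1, 1.98% in UPF1/XRN1, 15.6% in XRN1 (exact Clopper-Pearson interval 14.7 to 16.6) and 1.62% in the control. Whether reads moved between these copies was not tested.

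FAM72A and FAM72B, the copies with most FPKM, differed little among libraries. FAM72A had 27.5 FPKM in SMG6/XRN1, 25.6 in UPF1/XRN1, 26.0 in XRN1 and 22.9 in the control. FAM72B had 27.4 FPKM in SMG6/XRN1, 27.3 in UPF1/XRN1, 25.9 in XRN1 and 22.1 in the control. The control was lowest for both. Their log2 changes in XRN1 over control were 0.18 for FAM72A and 0.22 for FAM72B, near the median of all loci. In their other 4 values, SMG6/XRN1 or UPF1/XRN1 over XRN1, they lay between -0.02 and 0.08. FAM72A overlaps SRGAP2 and FAM72B overlaps SRGAP2C at their starts, on the opposite strand in GRCh38, and no source used here says whether counting took strand into account.

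Within FAM72A the share of the main isoform varied little, while smaller isoforms differed more. The isoform that matches ENST00000367128 held 47.3% to 50.5% of the FAM72A reads over the 4 libraries. A FAM72A isoform nearest to ENST00000431655 but with a junction of its own had 344 reads in SMG6/XRN1, 410.4 in UPF1/XRN1, 147 in XRN1 and 289.7 in the control, and its ratio in XRN1 over control was 0.533 (0.434 to 0.652). The FAM72A isoform of ENST00000341209 was highest in XRN1, with 651 reads in SMG6/XRN1, 584 in UPF1/XRN1, 757 in XRN1 and 549.9 in the control. In FAM72B, the isoform of ENST00000369390 had 915 reads in SMG6/XRN1, 1199.6 in UPF1/XRN1, 1011 in XRN1 and 779 in the control. The FAM72B isoform of ENST00000355228 was instead highest in SMG6/XRN1, with 712 reads, against 548 in UPF1/XRN1, 509.7 in XRN1 and 496 in the control. The FAM72B isoform with a junction of its own had 281 reads in SMG6/XRN1, 374 in UPF1/XRN1, 306 in XRN1 and 290.1 in the control, and the one that matches ENST00000452190 reached 22.5 reads in UPF1/XRN1 and stood at 0 to 5.50 reads in the others.

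Summed over the 4 copies, FAM72 varied much less than FAM72C. The sum was 76.2 FPKM in SMG6/XRN1, 72.3 in UPF1/XRN1, 88.9 in XRN1 and 63.6 in the control. Without FAM72C it was 73.7 FPKM in SMG6/XRN1, 69.8 in UPF1/XRN1, 66.6 in XRN1 and 61.8 in the control, and XRN1 was then no longer the highest. Summed estimated reads were 5593 in SMG6/XRN1, 5996 in UPF1/XRN1, 5871 in XRN1 and 4804 in the control. The read ratio of the family was 1.28 (1.24 to 1.33) in XRN1 over control, 1.0 (0.964 to 1.04) in SMG6/XRN1 over XRN1 and 0.938 (0.905 to 0.973) in UPF1/XRN1 over XRN1. Over FAM72A, FAM72B and FAM72D alone it was 1.10 (1.06 to 1.15), 1.16 (1.12 to 1.21) and 1.09 (1.05 to 1.13) in the same 3 comparisons, so leaving out FAM72C turned the direction of UPF1/XRN1 over XRN1. Per sequenced read, without the spike-in scale, these 3 copies stood at 1.0 in XRN1 over control.

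**Figure D3:**
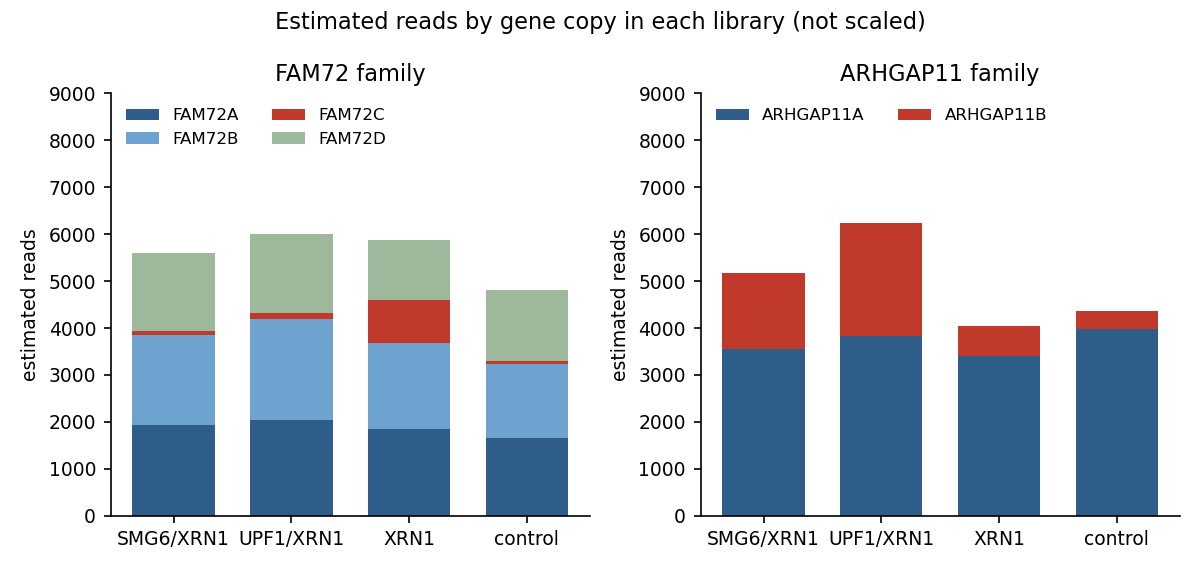
Stacked bars give the estimated reads of each copy in the 4 libraries, not scaled for depth, for FAM72 (left) and ARHGAP11 (right). FAM72C takes 916 reads in XRN1 and at most 119 elsewhere, and ARHGAP11B takes 1628 reads in SMG6/XRN1, 2426 in UPF1/XRN1, 648 in XRN1 and 381 in the control.

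No FAM72 isoform carried the authors' NMD mark, 0 of 16. The mark was set on 28034 of the 199618 isoforms (14%). Tested on the file, it stood exactly where SMG6/XRN1 and UPF1/XRN1 were both above 0 and over 2 times the control. Of the FAM72 isoforms, 9 had at least 20 reads in some library, and among all isoforms with that many reads 27.7% carried the mark. In the FAM72 reference transcripts with an annotated stop codon, the stop lay after the last exon junction. In ENST00000369175 of FAM72C it is a TGA that also lies past that junction.

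ARHGAP11A and ARHGAP11B lie on the plus strand of chromosome 15, at chr15:32615144-32639949 and chr15:30624494-30638805 in GRCh38. ARHGAP11B has a splice donor inside exon 5 that ARHGAP11A lacks. Exon 5 therefore ends at coding base 715 in ARHGAP11A and at coding base 660 in ARHGAP11B, and 55 bases are absent from the ARHGAP11B mRNA. The coding sequence with its stop codon is 3072 bases long in ARHGAP11A and 804 in ARHGAP11B. The 660 bases before the absent stretch differ at 6 positions and the 144 bases after it at 2. Both sequences are shown from coding base 611, 5′ to 3′, because this junction gives ARHGAP11B its own reading frame and its early stop. Capitals mark the 55 bases absent from ARHGAP11B in the ARHGAP11A line (bases 611 to 859) and the stop codon in the ARHGAP11B line (bases 611 to 804).
ARHGAP11A ENST00000361627.7: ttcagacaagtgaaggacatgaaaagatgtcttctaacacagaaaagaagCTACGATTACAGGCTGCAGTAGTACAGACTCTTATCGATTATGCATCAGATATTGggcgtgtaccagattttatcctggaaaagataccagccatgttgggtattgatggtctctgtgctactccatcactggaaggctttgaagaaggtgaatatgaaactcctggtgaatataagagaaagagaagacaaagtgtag
ARHGAP11B ENST00000428041.3: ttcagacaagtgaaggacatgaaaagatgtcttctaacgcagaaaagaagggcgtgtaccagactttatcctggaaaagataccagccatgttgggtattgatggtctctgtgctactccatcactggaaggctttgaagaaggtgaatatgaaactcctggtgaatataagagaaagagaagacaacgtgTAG

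In the coding ARHGAP11B transcript ENST00000428041, the stop codon TAG shown above lies 3 bases before the last of its junctions, with 1 junction after it. No isoform with a value named that transcript, and the listed ARHGAP11B isoforms without a value were not checked for it. The ARHGAP11B isoforms with a value were assigned to ENST00000563110, ENST00000564902, ENST00000566362, ENST00000568574, ENST00000569416 and ENST00000562954. ENST00000563110 has 11 exons and 2042 bases in release 29, in a later version than the one the isoforms name. There it is annotated as a nonsense-mediated decay transcript of a gene named AC091057.6. Its TAG lies 371 bases before the last junction, with 5 junctions after it. ENST00000564902 is a processed transcript of the same gene, and ENST00000562954 belongs to AC091057.1 in release 29, the gene that also bears the gene ID the files give for ARHGAP11B. AC091057.6 lies at chr15:30624548-30685606 on the plus strand, over ARHGAP11B and beyond its end. Isoforms nearest to ENST00000563110 held 56.2% to 77.3% of the reads of the locus over the 4 libraries, and the isoform nearest to ENST00000564902 held 11.1% to 39.4%. Most reads given as ARHGAP11B, by the authors' symbol, thus lay on isoforms whose nearest reference transcript is under AC091057.6 in release 29. Each of these isoforms holds a junction of its own, and their structures were not placed on GRCh38. In all 4 coding transcripts of ARHGAP11A that the files name, the stop codon comes after the last junction.

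ARHGAP11A, the RhoA regulator, was nearly level. It had 21.8 FPKM in SMG6/XRN1, 21.8 in UPF1/XRN1, 21.2 in XRN1 and 23.7 in the control. The control was highest, and the log2 change was -0.15 in XRN1 over control and 0.04 in both SMG6/XRN1 and UPF1/XRN1 over XRN1. Its reads were 3550 in SMG6/XRN1, 3820 in UPF1/XRN1, 3393 in XRN1 and 3983 in the control. The read ratio was 0.895 (0.855 to 0.937) in XRN1 over control and 1.10 (1.05 to 1.15) in SMG6/XRN1 over XRN1, where it was 0.996 per sequenced read. In UPF1/XRN1 over XRN1 it was 1.03 (0.987 to 1.08).

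The locus listed as ARHGAP11B was higher in SMG6/XRN1, UPF1/XRN1 and XRN1 than in the control. It had 21.9 FPKM in SMG6/XRN1, 26.5 in UPF1/XRN1, 6.98 in XRN1 and 2.12 in the control. From high to low the order was UPF1/XRN1, SMG6/XRN1, XRN1 and control, with SMG6/XRN1 and UPF1/XRN1 close to each other and far above XRN1. The log2 change was 1.35 in XRN1 over control, 1.52 in SMG6/XRN1 over XRN1 and 1.79 in UPF1/XRN1 over XRN1, and it ranked 222nd, 47th and 37th from the top of the 12164 loci. The FPKM of ARHGAP11B over that of ARHGAP11A was 1.0 in SMG6/XRN1, 1.22 in UPF1/XRN1, 0.329 in XRN1 and 0.0896 in the control. The ARHGAP11B locus also holds a Y_RNA symbol, and in GRCh38 its start overlaps the antisense gene AC091057.2.

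The reads of ARHGAP11B gave the same order, with a smaller step from the control to XRN1. They were 1628 in SMG6/XRN1, 2426 in UPF1/XRN1, 648 in XRN1 and 381 in the control. The read ratio was 1.79 (1.57 to 2.03) in XRN1 over control, so by reads the gene lay under 2-fold there, with an interval that reaches past it. It was 2.64 (2.41 to 2.89) in SMG6/XRN1 over XRN1 and 3.44 (3.15 to 3.76) in UPF1/XRN1 over XRN1. Against the control it was 4.72 (4.21 to 5.28) in SMG6/XRN1 and 6.15 (5.51 to 6.86) in UPF1/XRN1. UPF1/XRN1 over SMG6/XRN1 stood at 1.30 (1.22 to 1.39).

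**Figure D4:**
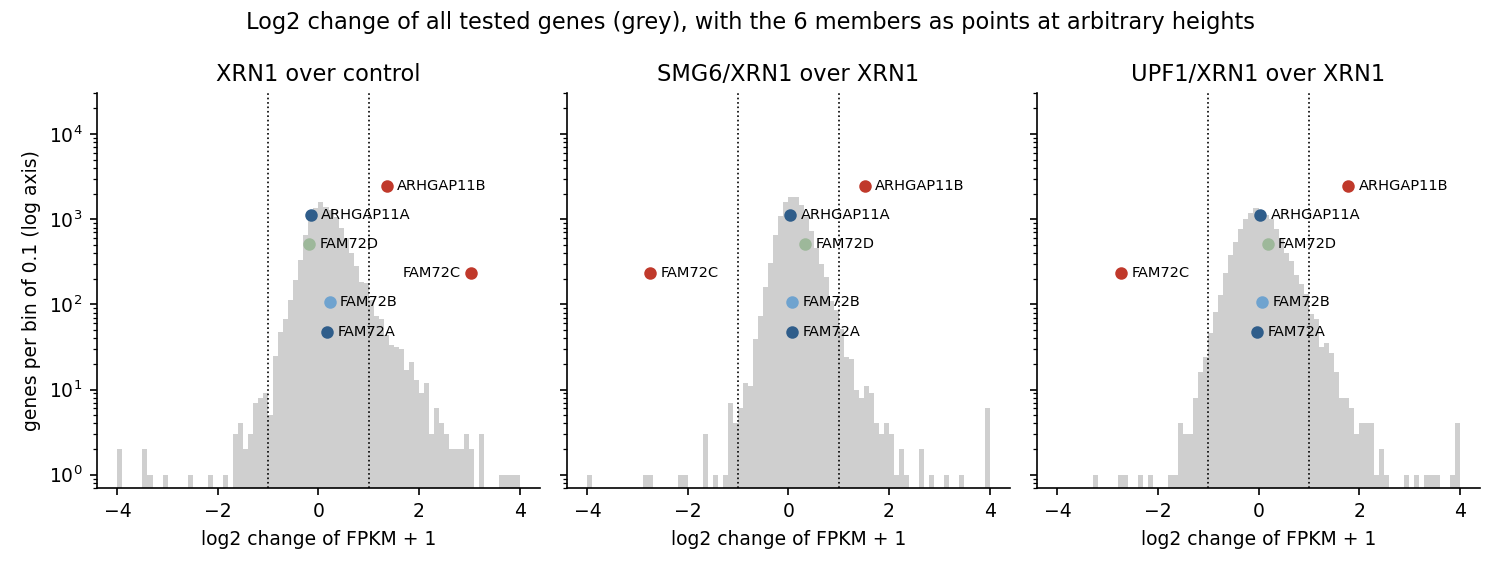
Grey bars count the 12164 loci in bins of 0.1 of the log2 change of FPKM + 1 (log vertical axis, loci beyond the axis drawn in the end bins, dotted lines at 2-fold) with XRN1 over control on the left and SMG6/XRN1 and UPF1/XRN1, each over XRN1, to its right. Points give the 6 genes at their log2 change on the horizontal axis, at heights with no meaning, and FAM72C (3.04, -2.76 and -2.73) and ARHGAP11B (1.35, 1.52 and 1.79) lie outside the lines.

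Most of the ARHGAP11B reads in SMG6/XRN1 and UPF1/XRN1 sat on isoforms nearest to ENST00000563110. The 4 assembled isoforms of that kind share a junction with it and also hold one that it lacks. Together they had 1208 reads in SMG6/XRN1, 1875 in UPF1/XRN1, 371 in XRN1 and 214 in the control. The largest, TCONS_00061841, had 1002 reads in SMG6/XRN1, 1540.2 in UPF1/XRN1, 255 in XRN1 and 135 in the control. Its read ratio was 4.13 (3.59 to 4.75) in SMG6/XRN1 over XRN1 and 5.55 (4.86 to 6.36) in UPF1/XRN1 over XRN1, against 1.99 (1.60 to 2.46) in XRN1 over control. It was 61.6% of the ARHGAP11B reads in SMG6/XRN1, 63.5% in UPF1/XRN1, 39.3% in XRN1 and 35.4% in the control.

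TCONS_00061840 of the same kind had 185 reads in SMG6/XRN1, 309 in UPF1/XRN1, 104 in XRN1 and 16.3 in the control. Its largest step was that of XRN1 over control, 6.67 (4.01 to 12.4). TCONS_00061839 went the other way, with 12.5 reads in SMG6/XRN1, 24.9 in UPF1/XRN1, 0.0491 in XRN1, which is under the floor of 3 reads, and 62.8 in the control. It was the ARHGAP11B isoform of this kind without the NMD mark.

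The isoform that matches ENST00000566362 was high in SMG6/XRN1 and UPF1/XRN1 and low in XRN1 and the control. It had 126 reads in SMG6/XRN1, 183 in UPF1/XRN1, 7.94 in XRN1 and 13.7 in the control, and its ratio over XRN1 was 16.7 (8.14 to 39.1) in SMG6/XRN1 and 21.2 (10.4 to 49.4) in UPF1/XRN1. The isoform of ENST00000569416 had 66.3 reads in SMG6/XRN1, 92.6 in UPF1/XRN1, 27.8 in XRN1 and 3.16 in the control. The isoform of ENST00000562954 was highest in XRN1, with 29.1 reads in SMG6/XRN1, 3.00 in UPF1/XRN1 and 47.1 in XRN1, and was listed at 0 in the control. The isoform nearest to ENST00000564902, which carries no NMD mark, was the most level of the larger ones. It had 197 reads in SMG6/XRN1, 269 in UPF1/XRN1, 195 in XRN1 and 149.9 in the control.

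The NMD mark stood on 7 of the 9 ARHGAP11B isoforms and on 5 of the 7 that had at least 20 reads in a library, against 27.7% of all isoforms with that many reads. Among these 5 is the isoform of ENST00000562954, which had 3.00 reads in UPF1/XRN1, 47.1 in XRN1 and 0 in the control. Marked ARHGAP11B isoforms outside these 5 had fewer than 20 reads in every library. Since the mark is defined by these same libraries, the split that follows is set in part by the mark itself. Marked ARHGAP11B isoforms had 1419 reads in SMG6/XRN1, 2132 in UPF1/XRN1, 454 in XRN1 and 168 in the control. The 2 unmarked ones together had 209 reads in SMG6/XRN1, 294 in UPF1/XRN1, 195 in XRN1 and 213 in the control. Marked isoforms were 87.1% of the reads of the gene in SMG6/XRN1, 87.9% in UPF1/XRN1, 70.0% in XRN1 and 44.1% in the control.

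The level total of ARHGAP11A covered shifts among its isoforms. The longest, which matches ENST00000361627 (5898 bases), had 994 reads in SMG6/XRN1, 906 in UPF1/XRN1, 326 in XRN1 and 1063 in the control. XRN1 stood far below the other libraries, at 9.59% of the ARHGAP11A reads, against 28.0% in SMG6/XRN1, 23.7% in UPF1/XRN1 and 26.7% in the control. The read ratio of this isoform was 0.322 (0.284 to 0.365) in XRN1 over control, 3.20 (2.82 to 3.64) in SMG6/XRN1 over XRN1 and 2.56 (2.25 to 2.91) in UPF1/XRN1 over XRN1.

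TCONS_00061908, nearest to ENST00000543522 (3152 bases), had 365 reads in SMG6/XRN1, 710.1 in UPF1/XRN1 and 611 in XRN1 and was listed at 0 in the control, where other isoforms of the same reference transcript held many reads. A 0 can be a failed estimate, so no fold is given. TCONS_00061909, also nearest to ENST00000543522, had 886 reads in SMG6/XRN1, 636 in UPF1/XRN1, 1227 in XRN1 and 1412 in the control. The full match to ENST00000543522 had 858 reads in SMG6/XRN1, 1044 in UPF1/XRN1, 912 in XRN1 and 1181 in the control. Added together, these 3 isoforms had 2109 reads in SMG6/XRN1, 2389.6 in UPF1/XRN1, 2749.7 in XRN1 and 2594 in the control, a sum that moved much less than TCONS_00061908 did.

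The shorter ARHGAP11A form of ENST00000563864 had 208 reads in SMG6/XRN1, 386 in UPF1/XRN1, 207 in XRN1 and 143 in the control. Its ratio was 1.72 (1.44 to 2.04) in UPF1/XRN1 over XRN1 and 1.05 (0.866 to 1.28) in SMG6/XRN1 over XRN1. The form of ENST00000567348 was high in SMG6/XRN1 only, with 117 reads, against 41.1 in UPF1/XRN1, 41.9 in XRN1 and 38.1 in the control. Both forms carry no NMD mark. Of 12 ARHGAP11A isoforms 2 carried it, and of the 8 with at least 20 reads it was TCONS_00061908 alone. With the control of TCONS_00061908 listed at 0, any signal in both SMG6/XRN1 and UPF1/XRN1 meets the rule of the mark. It had more reads in XRN1 (611) than in SMG6/XRN1 (365). The remaining isoforms with 20 reads, TCONS_00061903 and TCONS_00061905, were highest in the control, at 114 and 28.1 reads.

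**Figure D5:**
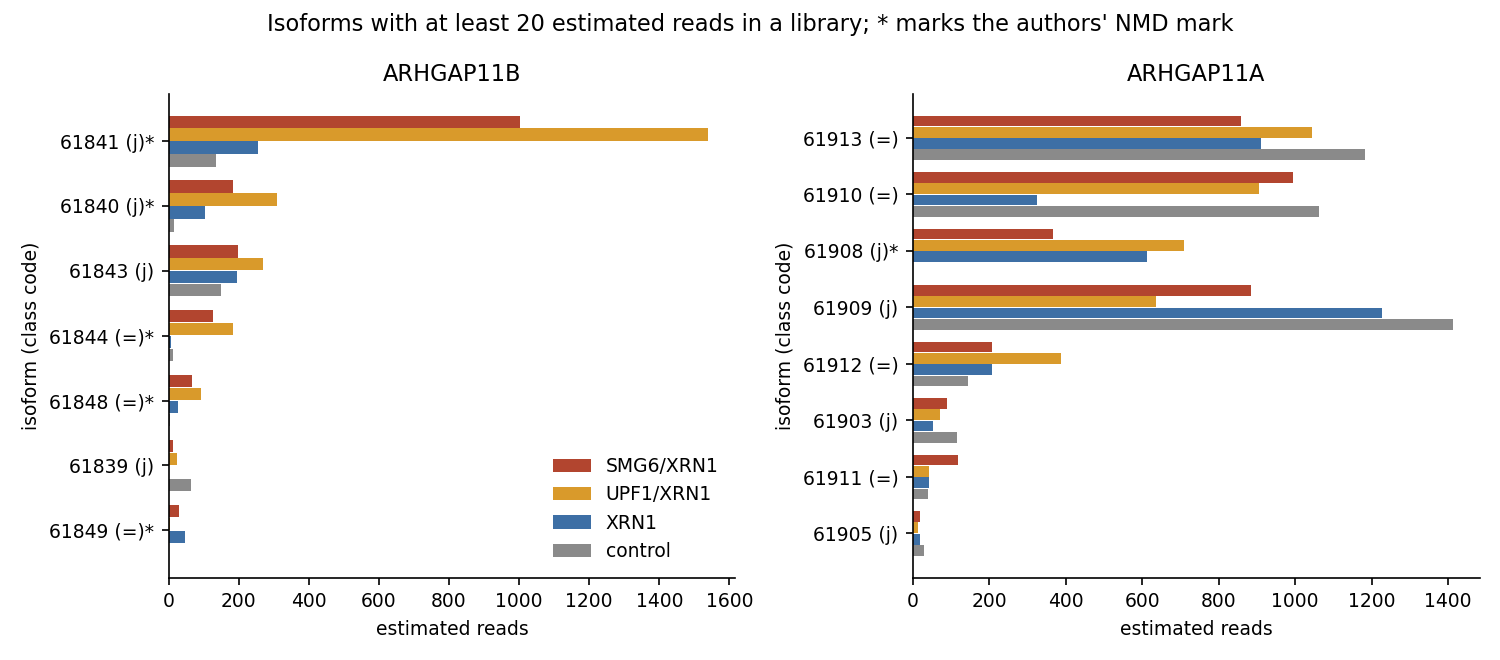
Bars give the estimated reads of each ARHGAP11B isoform (left) and ARHGAP11A isoform (right) with at least 20 reads in a library, with SMG6/XRN1, UPF1/XRN1, XRN1 and control from top to bottom, each isoform named by the last digits of its TCONS name and its class code (= for a full match, j for a junction of its own). A star stands for the authors' NMD mark, which the ARHGAP11B isoform TCONS_00061841 carries (1002 reads in SMG6/XRN1, 1540.2 in UPF1/XRN1, 255 in XRN1, 135 in the control) and the full match to ENST00000361627 of ARHGAP11A does not.

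Summed over both ARHGAP11 copies, reads were 5178 in SMG6/XRN1, 6246 in UPF1/XRN1, 4042 in XRN1 and 4364 in the control. The ratio was 0.973 (0.932 to 1.02) in XRN1 over control, a value whose direction turned when FPKM was summed instead, 1.34 (1.29 to 1.40) in SMG6/XRN1 over XRN1 and 1.42 (1.36 to 1.48) in UPF1/XRN1 over XRN1. ARHGAP11B held 31.4% of these reads in SMG6/XRN1, 38.8% in UPF1/XRN1, 16.0% in XRN1 and 8.72% (7.91 to 9.61) in the control. By FPKM the sum was 43.7 in SMG6/XRN1, 48.3 in UPF1/XRN1, 28.2 in XRN1 and 25.8 in the control.

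Of 8 SRGAP2 symbols listed, 3 were in the gene table. None of the 3 passed 2-fold in any comparison, against 4.48%, 1.54% and 3.05% of all loci, a share at which 3 loci would rarely hold a call. SRGAP2, beside FAM72A, had 33.7 FPKM in SMG6/XRN1, 26.8 in UPF1/XRN1, 36.0 in XRN1 and 24.6 in the control. SRGAP2C, beside FAM72B, had 27.4 FPKM in SMG6/XRN1, 21.3 in UPF1/XRN1, 29.5 in XRN1 and 22.9 in the control. Both were highest in XRN1, but by 0.53 and 0.35 over the control on the log2 scale, against 3.04 for FAM72C. SRGAP2B, beside FAM72D, had 13.3 FPKM in SMG6/XRN1, 10.8 in UPF1/XRN1, 11.7 in XRN1 and 9.54 in the control. SRGAP2D, the copy beside FAM72C, was not among the 3. The list's median was 0.35 in XRN1 over control, -0.09 in SMG6/XRN1 over XRN1 and -0.41 in UPF1/XRN1 over XRN1.

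Among 34 loci of other recent human duplicates and their parents, 8 were past 2-fold upward in XRN1 over control (4.11% of all loci were), 2 in SMG6/XRN1 over XRN1 (1.36%) and 3 in UPF1/XRN1 over XRN1 (2.52%), and none downward. The 8 include the copies GPR89A, GPR89B and GPR89C, at log2 changes of 1.04, 1.27 and 1.26. They also include both loci of GOLGA6L9, at 1.07 and 1.11, so these calls are not independent of each other. The list's medians were 0.30, 0.21 and 0.08. GOLGA8B, a golgin copy on chromosome 15, had 10.5 FPKM in SMG6/XRN1, 12.1 in UPF1/XRN1, 8.49 in XRN1 and 1.29 in the control, with a log2 change of 2.05 in XRN1 over control. HERC2P2, a pseudogene copy of the ubiquitin ligase HERC2, had 10.3 FPKM in SMG6/XRN1, 7.34 in UPF1/XRN1, 5.91 in XRN1 and 0.850 in the control. The 2 loci of GOLGA6L9 ran in the same order as ARHGAP11B: the larger had 10.1 FPKM in SMG6/XRN1, 13.2 in UPF1/XRN1, 4.20 in XRN1 and 1.41 in the control. ULK4, a kinase relative, was past 2-fold over XRN1 both in SMG6/XRN1, at 1.14, and in UPF1/XRN1, at 1.06. How far the sequences of these loci can be told apart was not examined.

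Genes that work with the encoded proteins, or at the same stage of the cell cycle, were counted by list. Of 33 loci of cytokinesis and RhoA regulators, 48 of mitotic genes, 23 of uracil and base excision repair and 14 of mitochondrial glutamine use and adenine nucleotide carriers (SLC25A6 has 2 of these), none passed 2-fold in any of the 3 comparisons. Over all loci the shares were 4.48%, 1.54% and 3.05%, so lists of this size would hold few or no calls at the background share. RHOA, the GTPase that ARHGAP11A acts on, had 189 FPKM in SMG6/XRN1, 165 in UPF1/XRN1, 204 in XRN1 and 201 in the control. ECT2, the exchange factor that activates RhoA in cytokinesis, had 43.2 FPKM in SMG6/XRN1, 41.5 in UPF1/XRN1, 31.4 in XRN1 and 37.5 in the control. UNG, which FAM72A binds, had 64.7 FPKM in SMG6/XRN1, 56.8 in UPF1/XRN1, 71.0 in XRN1 and 60.5 in the control. SLC25A5, a carrier that exchanges adenine nucleotides across the inner mitochondrial membrane, had the lowest log2 change of its list in UPF1/XRN1 over XRN1, at -0.48.

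Single values in these lists stayed under 1 on the log2 scale in either direction. CIT, the citron kinase of the midbody, stood at 0.97 in XRN1 over control, SLC1A5, a glutamine importer, at 0.88, and ESPL1, the protease separase, at 0.81. DLC1, another GTPase-activating protein for RhoA, stood at -0.91 in UPF1/XRN1 over XRN1, NTHL1, a DNA glycosylase, at -0.79, and the proliferation marker MKI67 at -0.59. In XRN1 over control, the medians were 0.02 for cytokinesis, -0.05 for mitotic genes, 0.01 for repair and 0.01 for the glutamine list. In SMG6/XRN1 over XRN1 they were 0.09, 0.12, 0.14 and 0.01, and in UPF1/XRN1 over XRN1 0.12, 0.15, 0.01 and 0.04, beside the medians of all loci given above.

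Genes with the most similar course over the 4 libraries were found by the Euclidean distance of centred log2 FPKM + 1 among 7835 loci with a symbol and a mean of at least 5 FPKM. FAM72C had no locus within a distance of 0.5. The nearest were CAB39 at 0.57, AC004448.5 at 0.63 and RPL9P9 at 1.25. CAB39, which encodes a kinase scaffold, had 28.8 FPKM in SMG6/XRN1, 25.8 in UPF1/XRN1, 121 in XRN1 and 22.3 in the control, but its reads were 4029 in SMG6/XRN1, 4102 in UPF1/XRN1, 3572 in XRN1 and 3181 in the control. FPKM and reads thus parted for CAB39 and ran together for FAM72C. AC004448.5 was high in XRN1 by both, at 229.5 FPKM and 6623 reads, against 34.6 FPKM and 1031 reads in the control.

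ARHGAP11B had 25 loci within 0.5, and the nearest were EPB41L4A-AS1 at 0.07, AHSA2 at 0.12 and CUZD1 at 0.12. This search was added after the values had been seen. EPB41L4A-AS1, a non-coding RNA, had 136 FPKM in SMG6/XRN1, 157 in UPF1/XRN1, 44.9 in XRN1 and 16.4 in the control. The family sums were common courses: the FAM72 sum had 4560 loci within 0.5, led by HOXB-AS3, RP5-886K2.3 and CECR5, and the ARHGAP11 sum had 1851, led by NSMAF, IFT20 and TM2D1.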

How the data were processed

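Per the submitters' processing notes, the authors used hg19 and the tools Cufflinks 2.0.2, TopHat2 2.0.6, Bowtie 0.12.7 and CASAVA 1.8.2, whose roles and order are not stated. The authors deposited FPKM for assembled loci and, for isoforms, a spike-in normalised signal whose factor no source used here explains. Remaining deposited columns hold identifiers, class codes and the authors' TRUE or FALSE marks. The value of 1 read per library was found from low isoform signals, which are whole multiples of 1 step. Of loci with at most 20 reads, 82.8% to 85.3% came out whole within 0.01. The rest held fractions, so no count test was run.

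Log2 changes use FPKM with a pseudocount of 1, which makes changes of low genes look smaller, on loci with a mean of at least 1 FPKM. No p-value was computed, since each group had 1 library. Read ratios carry exact conditional binomial intervals and shares carry Clopper-Pearson intervals, both at 95%, for counting error only. Reference sequences, stops and junctions were read from GENCODE release 29. It held 22 of the 25 reference transcripts named by the isoforms with a value, matched by ID without version number. Many of the 22 are later versions there, such as ENST00000563110.6 for ENST00000563110.1 and ENST00000369175.4 for ENST00000369175.3. Exons, lengths, stops, junctions and window shares given here are those of the release 29 versions. Scripts used Python 3.11.15, pandas 2.3.3, numpy 2.4.6, scipy 1.17.1 and matplotlib 3.10.9. The value of 1 read, the interval of read ratios and the 2-fold calls were tested on simulated data, and the sequence comparisons were not.

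The genes named in the text are the 6 genes, their isoforms with at least 20 reads, the targeted genes, the 3 most similar loci to each family sum and FAM72C, and up to 2 largest rises and falls per list, plus list members past 2-fold where they are 5 or fewer. RHOA and UNG were named for their roles, and the loci most similar to ARHGAP11B were added, after their values were seen. So were GPR89A, GPR89B and GPR89C, as copies within the same list. The text gives only some of the genes that the list part of this rule picks. The members and lists were chosen with earlier results of these data known. Alternatives changed the pseudocount, the filter, the centring, the scale and the isoforms summed.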

Additional observations from a re-analysis of the deposited data

How the results depend on the processing

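No paired analysis was possible because each group had 1 RNA-seq library, and no library could be left out for the same reason. For the 6 genes, 18 log2 changes were recomputed under 3 alternatives each. Of the 54 values, 53 stayed on the same side of 2-fold and 50 kept their sign. The exception to the first was ARHGAP11B in XRN1 over control, which was 0.84 by reads. The 4 sign changes were FAM72A, FAM72B and ARHGAP11A in SMG6/XRN1 over XRN1, at -0.04, -0.04 and -0.08 after centring, and FAM72A in UPF1/XRN1 over XRN1, at 0.02 by reads. For FAM72C the range over settings was 2.90 to 3.63 in XRN1 over control.

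Counts of loci past 2-fold moved more, in the order XRN1 over control, SMG6/XRN1 over XRN1, UPF1/XRN1 over XRN1. They were 1080, 396 and 744 with a pseudocount of 0.1, 340, 113 and 244 with a filter of 5 FPKM, and 1099, 456 and 730 from isoform signal, against 545, 187 and 371. Centring on the median gave 362 higher and 65 lower loci in XRN1 over control, against 500 and 45. It gave 111 and 31 in SMG6/XRN1 over XRN1, against 166 and 21. In UPF1/XRN1 over XRN1 it gave 291 and 70, against 306 and 65. In UPF1/XRN1 over XRN1, a pseudocount of 0.1 gave 529 higher and 215 lower, and isoform signal 573 and 157, against 306 and 65.

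The FAM72 sum had a log2 change of 0.36 in XRN1 over control, and 0.22 by total reads, 0.48 by FPKM, 0.43 with full matches, 0.55 without its largest isoform and 0.14 without FAM72C (an alternative added after seeing the data). In SMG6/XRN1 over XRN1 it was 0.00, and -0.14, -0.22, -0.055, -0.15 and 0.22 in the same order. In UPF1/XRN1 over XRN1 it was -0.09, and -0.30 by FPKM, -0.18 with full matches, -0.21 without the largest isoform and 0.12 without FAM72C. The ARHGAP11 sum was -0.04 in XRN1 over control, and -0.18 by total reads, 0.13 by FPKM and -0.57 with full matches. In SMG6/XRN1 over XRN1 it was 0.43, and 0.29 by total reads, 0.63 by FPKM, 0.68 with full matches and 0.68 without its largest isoform. In UPF1/XRN1 over XRN1 it was 0.51, and 0.78 by FPKM, 0.64 with full matches and 0.87 without the largest isoform. The cause of these differences was not tested. At 78 to 119 reads, FAM72C outside XRN1 has the fewest reads of the 6 genes, and depth limits it most.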
